A study of Macaca fascicularis with 32 samples.

Results

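The genes described here are the heat shock proteins and their HSP40 cochaperones. Members were all genes whose annotated symbol starts with HSP90, HSPA, HSPB, HSPD, HSPE, HSPH, DNAJA or DNAJB, without HSPBP1 and HSPBAP1. Of the 22316 annotated genes, 34 met this rule: 3 HSP90 genes, 10 HSPA (HSP70 family) genes, 1 HSPH (HSP110) gene, 1 HSPD (HSP60) gene, 6 HSPB (small heat shock protein) genes, 4 DNAJA genes and 9 DNAJB genes. No HSPE symbol was found, and HSPA1A, HSPA1B, HSPA9, HSPE1 and DNAJB6 were not analysed here.

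Nuclei came from the substantia nigra (SN), the putamen (PUT) and a region labelled caudal nucleus (CN) of cynomolgus macaques, and their RNA was counted with a droplet 3′ assay. By its title, the study models Parkinson's disease with viral α-synuclein and poly(ADP-ribose), and its samples carry the treatment label PD or CT. The labels list 4 PD and 4 CT samples for SN, 4 PD and 8 CT for PUT, and 4 PD and 8 CT for CN, 32 in all. What the CT animals received, and the ages, virus dose and injection site, are not given in the sources used here. The samples of each region and treatment lie together in 1 count matrix with no link from nucleus to animal, so each of the 6 matrices was treated as 1 library. There was no replicate and no test: every ratio below compares 1 PD library with 1 CT library, and its interval covers counting error only.

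Molecular chaperones bind unfolded proteins and help them to fold, to be rebuilt or to be degraded. An HSP40 protein hands a client to an HSP70 and stimulates its ATPase, an HSP110 exchanges the nucleotide on HSP70, and HSP90 completes the folding of kinases, receptors and other clients. HSP60 folds proteins inside mitochondria, and small heat shock proteins hold unfolded proteins without using ATP. In the test tube, an HSP70 system made of HSPA8, an HSP40 and an HSP110 can take apart α-synuclein fibrils, and such chaperones are found in Lewy bodies.

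After filters, 52728 of 56659 barcodes remained, 7173 to 9698 per library, and the matrices held 18692617 to 36723856 unique molecular identifiers (UMIs) each. Between 14 and 38 barcodes were shared by each pair of libraries. Classes were named from marker genes and carry the ending "-like". In 19 comparisons a class had at least 100 nuclei in both libraries of a region: 5 in SN, 7 in PUT and 7 in CN. A class often drew its PD and CT nuclei from different clusters. In SN dopaminergic-like neurons, for example, only 33.7% of CT and 48.9% of PD nuclei lay in clusters with at least 20 nuclei from each library. Such clusters are called shared below. Shared clusters held only 27.7% of CT nuclei in CN direct SPN-like and 30.7% of PD nuclei in PUT indirect SPN-like nuclei. Where shared clusters are counted for a member, only those with at least 20 of its UMIs over both libraries are meant. In SN oligodendrocyte-like nuclei, a cluster of 2009 CT nuclei held 72 from PD and one of 1941 PD nuclei held 309 from CT. In PUT oligodendrocyte-like nuclei such clusters held 2494 CT and 187 PD, and 55 CT and 1309 PD nuclei. In CN indirect SPN-like nuclei they held 1821 and 45, and 24 and 1458. Values are CPM, the UMIs of a gene per 1000000 UMIs of the class, compared only within a gene, since a 3′ assay gives no level that can be set between genes. A member counted as measured with at least 50 UMIs over both libraries, and 29 of the 34 members were measured in at least 1 comparison. DNAJB8 had no UMI in any nucleus, HSPA6 and HSPB7 had 1 UMI each, and HSPB6 and HSPA12B had 128 and 138.

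Several members differed by more between cell classes than between PD and CT. HSP90AA1 encodes the stress-inducible cytosolic HSP90. In oligodendrocyte-like nuclei its level was 648.5 CPM in SN CT, 479 in SN PD, 537 in PUT CT, 391 in PUT PD, 476 in CN CT and 346 in CN PD. In all neuron-like nuclei together it was 88.7, 86.2, 148, 125, 152 and 126 CPM in the same order. The oligodendrocyte-like level was thus above the neuronal one in all 6 libraries, by 2.74 to 7.31 times. After each nucleus was thinned to 1000 UMIs, 47.0% of SN CT oligodendrocyte-like nuclei (95% interval 45.5 to 48.5; 52.6% before thinning, median depth 1156 UMIs) and 9.50% of SN CT dopaminergic-like neurons (6.67 to 13.02; 66.9% before thinning, median depth 14225 UMIs) held an HSP90AA1 UMI. Thinning left out 2424 shallower nuclei of the first group and 1 of the second.

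**Figure D1:**
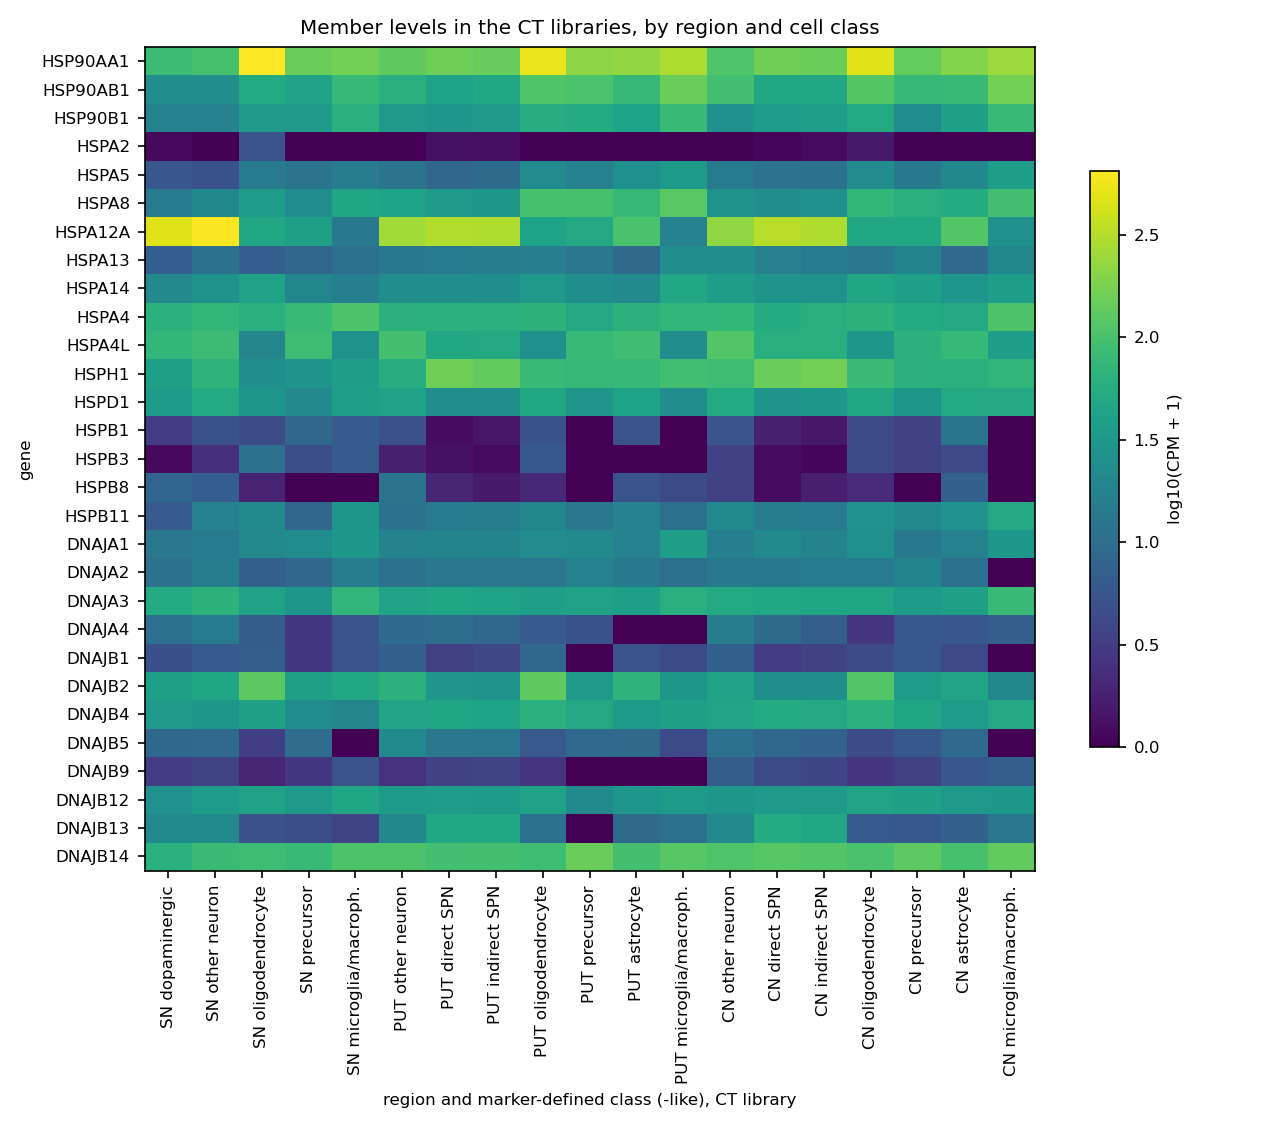
Heat map of the 29 measured members (rows) in the CT library of each of the 19 comparisons (columns), colored by log10(CPM + 1). HSP90AA1 is brightest in the 3 oligodendrocyte-like columns and HSPA12A in the neuronal columns; SN astrocyte-like nuclei, too few in PD for a comparison, have no column.

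HSPA12A, an atypical member of the HSP70 family, had the opposite distribution. Neuron-like nuclei held 522 CPM in SN CT, 497 in SN PD, 299.9 in PUT CT, 295 in PUT PD, 306 in CN CT and 308 in CN PD. Oligodendrocyte-like nuclei held 47.2, 31.0, 41.9, 39.8, 46.5 and 40.9 CPM, so the neuronal level was 6.57 to 16.02 times higher. Among CT neurons the order was SN other neuron-like (631 CPM), SN dopaminergic-like (477), CN direct SPN-like (321) and PUT direct SPN-like (306), where SPN stands for spiny projection neuron, the main output neuron of the striatum. The lowest CT class was SN microglia or macrophage-like, at 12.6 CPM. In thinned nuclei, HSPA12A was seen in 35.2% of SN CT dopaminergic-like neurons (30.2 to 40.4; 96.7% before thinning) and 4.67% of SN CT oligodendrocyte-like nuclei (4.05 to 5.35; 5.90% before thinning). Free RNA was not removed from the counts, and how much of the glial level it makes up was not tested.

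By a rule that asked for a ratio of at least 1.5 in every one of the 6 libraries, 5 of 31 members with enough UMIs stood higher in oligodendrocyte-like than in neuron-like nuclei, as did 14.9% of 15810 genes. They were HSP90AA1, HSP90AB1, HSPA8, HSPB3 and DNAJB2. In the other direction were 7 members, HSPA12A, HSPA12B, HSPA4L, HSPH1, DNAJA4, DNAJB5 and DNAJB13, beside 15.4% of genes. These shares lie near those of all genes. HSPA12B met the rule on few UMIs, at 0 to 0.439 CPM in oligodendrocyte-like and 0.294 to 1.42 CPM in neuron-like nuclei. DNAJB2, an HSP40 that directs clients to the proteasome, held 126, 125, 133, 157, 114 and 93.2 CPM in oligodendrocyte-like nuclei and 40.4, 43.1, 29.4, 28.1, 25.2 and 19.6 CPM in neuron-like nuclei, in the library order given above. The constitutive HSP70, HSPA8, was 1.97 to 3.15 times higher in oligodendrocyte-like nuclei, and the constitutive HSP90, HSP90AB1, 1.67 to 2.40 times. HSPB3, a small heat shock protein known from muscle, was highest in SN CT oligodendrocyte-like nuclei, at 9.66 CPM against 2.53 in the median SN class. Over the 6 libraries it was 3.80 to 24.8 times higher in oligodendrocyte-like than in neuron-like nuclei. The neuronal levels were only 0.0399 to 0.727 CPM, so these ratios rest on few UMIs. The highest came from CN PD, at 0.991 against 0.0399 CPM.

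**Figure D2:**
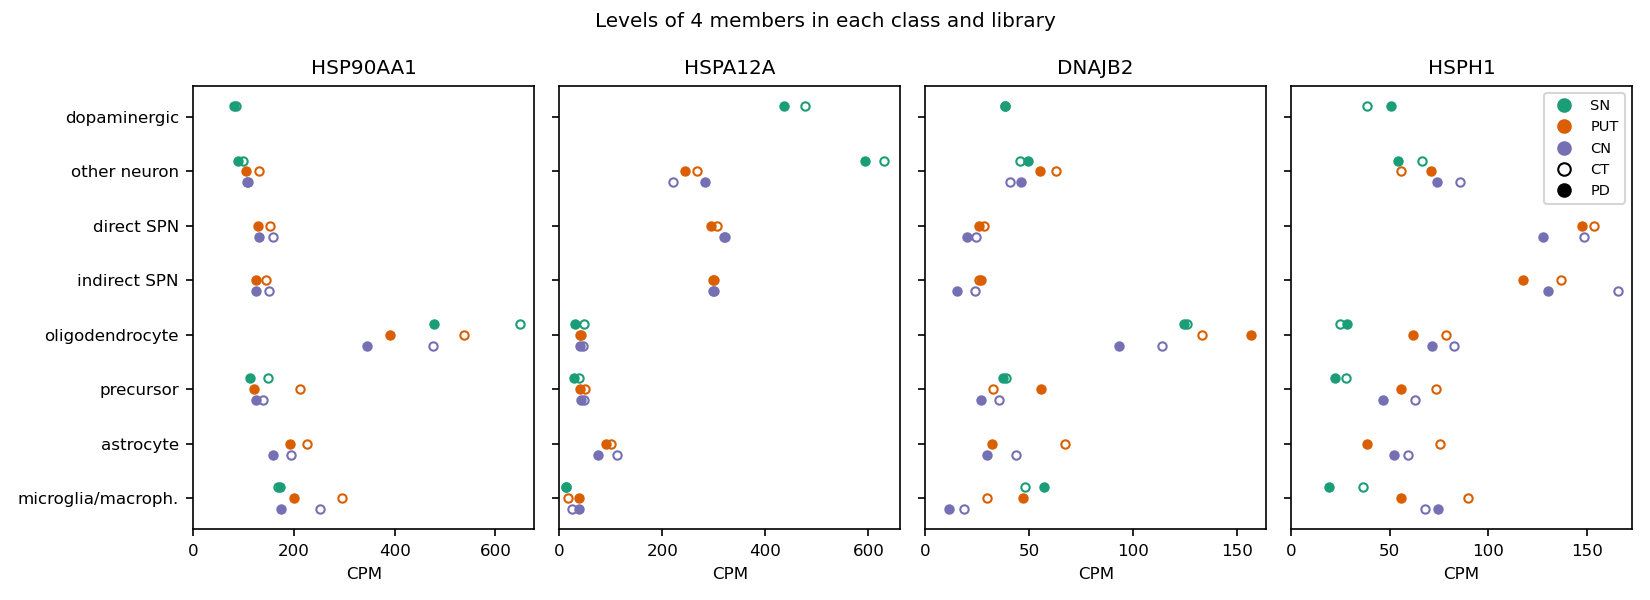
CPM of HSP90AA1, HSPA12A, DNAJB2 and HSPH1 in each marker-defined class, with open points for CT and filled points for PD libraries and colors for the regions. HSP90AA1 and DNAJB2 are farthest right in oligodendrocyte-like nuclei, HSPA12A in SN neurons and HSPH1 in SPN-like nuclei.

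HSPH1, the HSP110 that recharges HSP70, differed by class, and in oligodendrocyte-like nuclei also by region. In the CT libraries its level was 154 CPM in PUT direct SPN-like, 137 in PUT indirect SPN-like, 149 in CN direct SPN-like and 166 in CN indirect SPN-like nuclei, but 38.3 in SN dopaminergic-like and 66.2 in SN other neuron-like nuclei. PUT other neuron-like nuclei were the lowest PUT class, at 55.7 CPM, so no difference by region is read from the neurons. Oligodendrocyte-like nuclei held 24.5 CPM in SN CT and 28.4 in SN PD, against 78.8 in PUT CT, 61.6 in PUT PD, 82.5 in CN CT and 71.6 in CN PD. The 2 SN values lay below the 4 striatal ones by more than 1.5 times, as was so for 6.03% of 13067 genes. HSPA2, a further HSP70, was the reverse in these nuclei, with 4.28 and 2.50 CPM in SN and 0 to 1.38 CPM in the striatal libraries, beside 3.08% of genes. Only these 2 of 27 members with enough UMIs met that rule. Region and dissection cannot be told apart here.

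DNAJB13, an HSP40 best known from the sperm tail and cilia, was highest in SPN-like nuclei. It reached 45.9 CPM in PUT direct, 48.0 in PUT indirect, 54.8 in CN direct and 46.1 in CN indirect SPN-like nuclei of the CT libraries. Oligodendrocyte-like nuclei held 3.95 CPM in SN CT, 9.63 in PUT CT and 5.30 in CN CT. HSPA6, a strictly heat-inducible HSP70, had its single UMI in CN PD, and its other 5 libraries were at 0, which allows up to 0.0990 to 0.168 CPM by the limit of 3 UMIs. Over all nuclei of a library, DNAJB1, the inducible HSP40, held 4.97 CPM in SN CT, 5.25 in SN PD, 3.66 in PUT CT, 2.96 in PUT PD, 2.84 in CN CT and 1.63 in CN PD. HSPB1, the small heat shock protein HSP27, held 3.77, 4.69, 1.29, 1.86, 1.47 and 1.97 CPM in that order.

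Between PD and CT, the UMIs of all 34 members, as a part of the class total, gave a PD to CT ratio below 1 in 18 of 19 comparisons. Brackets below hold such ratios with their 95% counting intervals. All 14 PUT and CN intervals lay below 1, and 2 of 5 SN intervals did. SN dopaminergic-like neurons had the one ratio above 1, at 1142 CPM in CT and 1180 in PD (1.03, 0.994 to 1.07). SN oligodendrocyte-like nuclei went from 1424 to 1278 CPM (0.897, 0.874 to 0.922). CN indirect SPN-like nuclei went from 1299 to 1090 CPM (0.839, 0.818 to 0.860), and PUT oligodendrocyte-like nuclei from 1579 to 1257 CPM (0.796, 0.767 to 0.826). HSP90AA1 alone made up much of the sum in oligodendrocyte-like nuclei. In a sum of the other 33 members, added after seeing the data, SN oligodendrocyte-like nuclei held 776 CPM in CT and 799 in PD (1.03, 0.995 to 1.07), and PUT oligodendrocyte-like nuclei 1042 and 866 (0.831, 0.794 to 0.869). The ratio of this sum was below 1 in 17 of 19 comparisons, with 11 of 14 PUT and CN intervals and 0 of 5 SN intervals below 1. In SN dopaminergic-like, CN indirect SPN-like and PUT oligodendrocyte-like nuclei, the summed transcripts of 55 ribosomal protein genes gave ratios of 1.04, 0.813 and 0.674. The 13 mitochondrially encoded genes gave 2.33, 0.854 and 0.516. The part of either in the result was not tested.

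**Figure D3:**
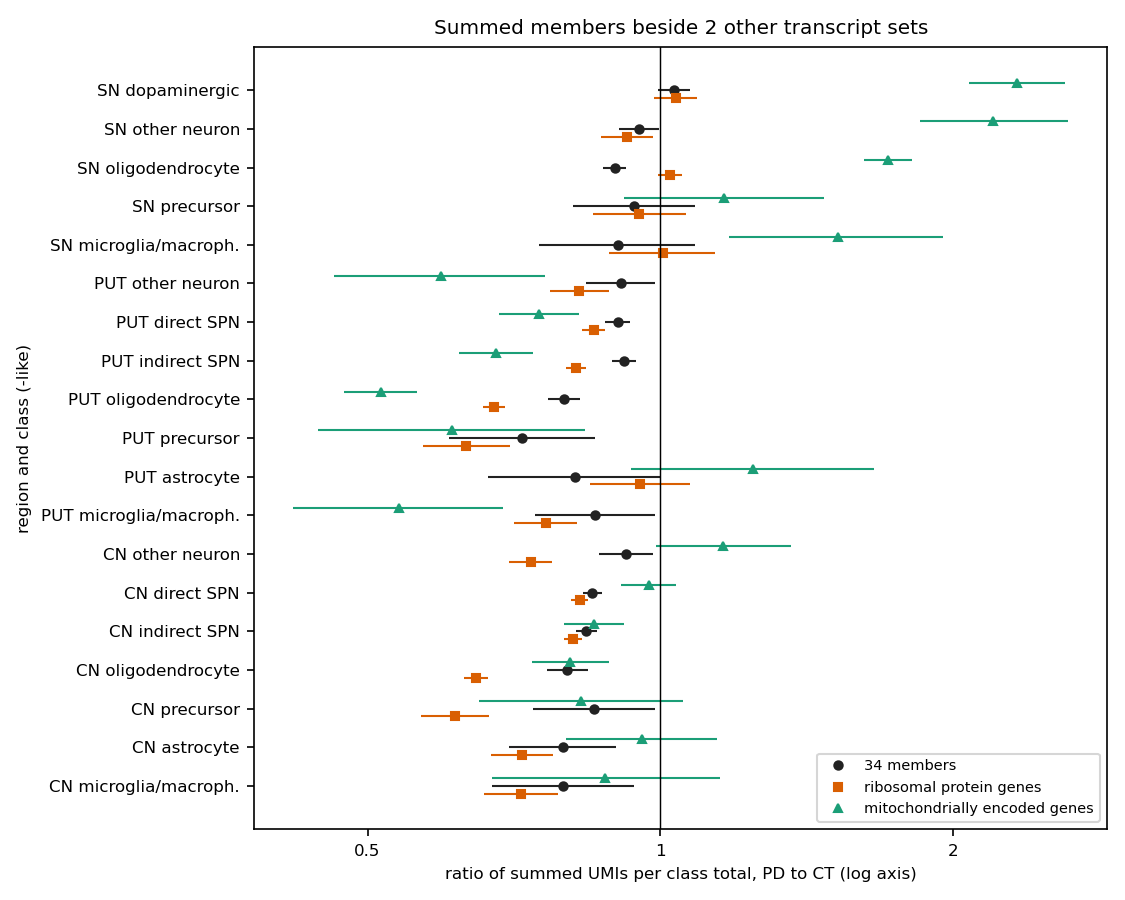
PD to CT ratio of the summed UMIs of the 34 members, of 55 ribosomal protein genes and of 13 mitochondrially encoded genes in each of 19 comparisons, on a log axis with 95% counting intervals. The member ratios lie left of 1 in 18 comparisons, the ribosomal protein ratios lie left of them in most PUT and CN classes, and the mitochondrial ratios lie right of 1 in SN.

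Counts of single members past a ratio of 1.5 were small. Among 24 members measured in SN dopaminergic-like neurons, 2 were higher in PD by that ratio, beside 7.26% of 10743 genes, and none was lower, beside 6.50%. Their median log2 ratio was 0.23, against 0.03 over all genes, and 17 of 24 lay above 0, as did 53.6% of genes. After each nucleus was thinned to 1000 UMIs, which leaves fewer members measured, the median was -0.05. In SN other neuron-like nuclei 1 of 21 was higher (4.98% of genes) and 1 lower (6.97%), with a median of -0.05 against -0.02. Among 26 members in SN oligodendrocyte-like nuclei 2 were higher (7.42%) and 4 lower (9.89%), with a median of 0.07 against -0.03. The SN shares of called members thus stayed near those of all genes.

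In the 8 PUT and CN comparisons with at least 10 measured members, no member was higher by that ratio. In PUT, the lower members numbered 0 of 15 in other neuron-like (8.24% of genes lower, 5.33% higher), 1 of 23 in direct SPN-like (8.64% and 5.14%), 4 of 24 in indirect SPN-like (8.61% and 5.53%) and 5 of 22 in oligodendrocyte-like nuclei (14.4% and 5.27%). The medians were -0.19, -0.16, -0.06 and -0.28, against -0.03, -0.05, -0.04 and -0.08 over all genes. In CN the lower members numbered 2 of 18 in other neuron-like (11.2% of genes lower, 3.69% higher), 3 of 24 in direct SPN-like (13.5% and 3.45%), 5 of 24 in indirect SPN-like (14.0% and 3.61%) and 3 of 20 in oligodendrocyte-like nuclei (12.5% and 5.72%). The medians there were -0.11, -0.30, -0.30 and -0.23, against -0.08, -0.14, -0.15 and -0.08. In CN direct SPN-like nuclei 19 of the 24 member intervals lay below 1, beside 36.0% of genes, and none above, beside 12.8%. In CN indirect SPN-like nuclei 14 of 24 lay below 1, beside 36.2%, and none above, beside 12.2%. The median gene ratios used for scaling in these 2 classes were -0.13 and -0.14 on the log2 scale. Taking them out leaves member medians of -0.17 and -0.16.

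In the 8 comparisons of the scarcer classes only 1 to 8 members were measured. The higher and lower shares of all genes were 5.73% and 7.06% in SN precursor-like, 10.5% and 13.8% in SN microglia or macrophage-like, and 8.78% and 9.25% in PUT astrocyte-like nuclei, and no member was past the ratio in these 3. In PUT precursor-like nuclei 2 of 2 members were lower (6.90% of genes; 6.82% higher), HSP90AA1 and DNAJB14. In PUT microglia or macrophage-like nuclei 1 of 5 was lower (8.31%; 10.0% higher), HSP90AB1. In CN, 1 of 4 was lower in precursor-like (7.98%; 6.28% higher), 2 of 8 in astrocyte-like (10.7%; 5.76% higher) and 1 of 4 in microglia or macrophage-like nuclei (7.97%).

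**Figure D4:**
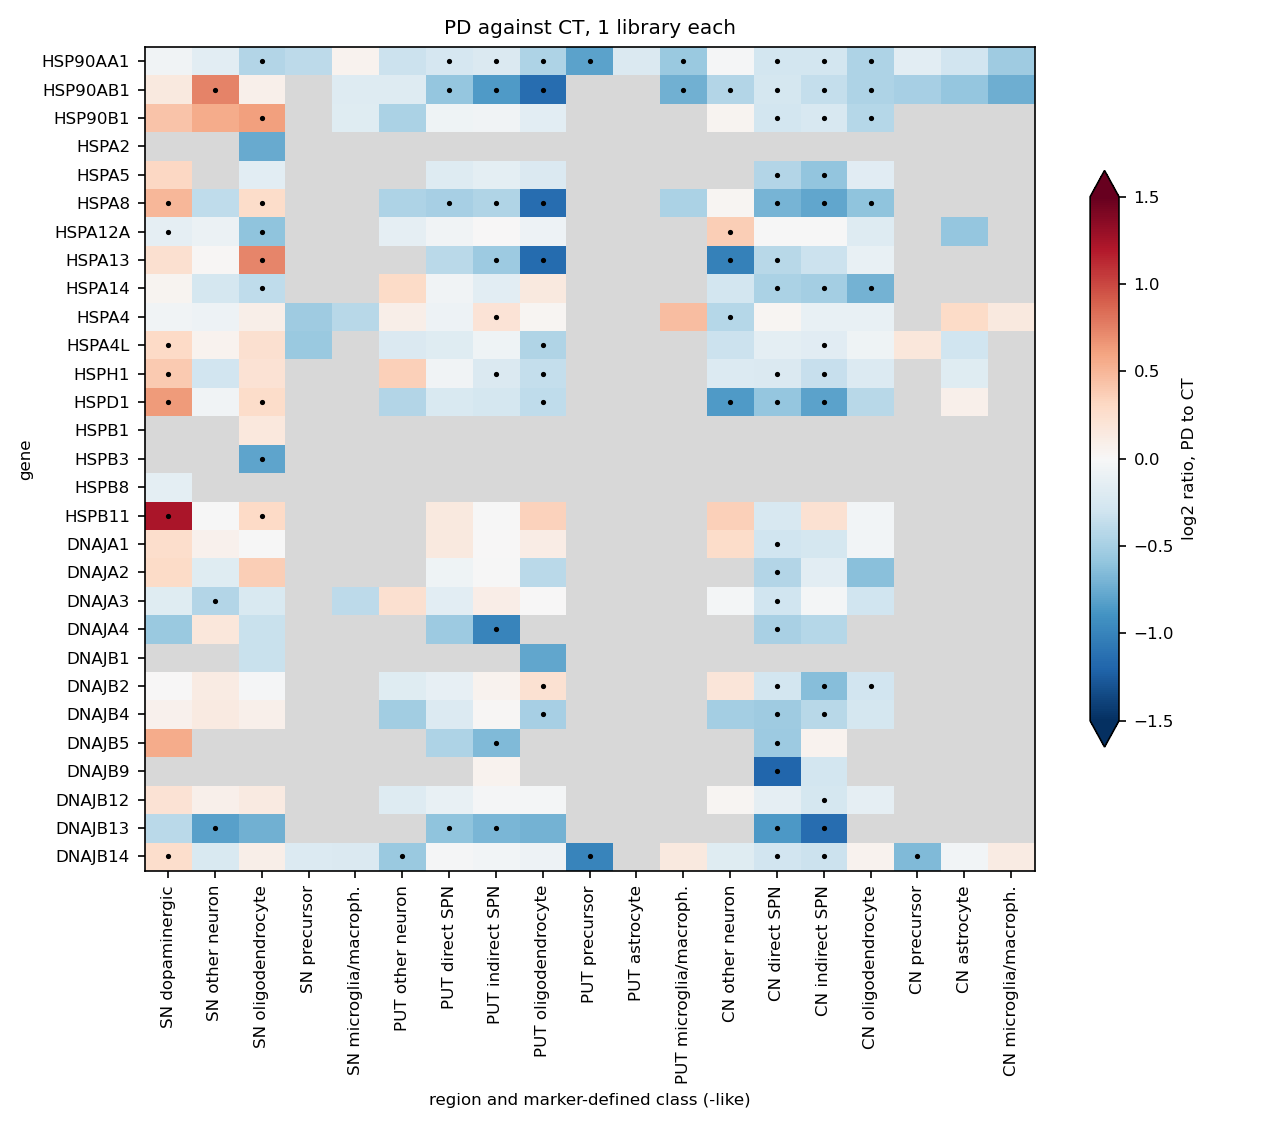
Log2 ratio of PD to CT for the 29 measured members (rows) in the 19 comparisons (columns), red for higher and blue for lower in PD, gray where fewer than 50 UMIs were counted, with a dot where the 95% counting interval excludes a ratio of 1. The SN dopaminergic-like column is mostly red, and the CN SPN-like columns are mostly blue.

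Among the HSP90 genes, HSP90AA1 had a ratio below 1 in 18 of 19 comparisons, with 9 intervals below 1. The difference was similar in the oligodendrocyte-like nuclei of the 3 regions: 648.5 CPM in CT and 479 in PD in SN (0.738, 0.708 to 0.770), 537 and 391 in PUT (0.728, 0.682 to 0.778), and 476 and 346 in CN (0.726, 0.665 to 0.793). All 3 ratios lay short of the 1.5-fold line. Within the SN clusters that both libraries share, the ratio was below 1 in 7 of 8 and ran from 0.358 to 1.11. In SN dopaminergic-like neurons HSP90AA1 was 84.7 CPM in CT and 81.3 in PD (0.960, 0.830 to 1.11), and CPM values of 158 and 130 in CN direct SPN-like nuclei gave a ratio of 0.824 (0.771 to 0.881). SN oligodendrocyte-like nuclei also differed in markers: the 8 oligodendrocyte markers summed to 17742 CPM in CT and 14509 in PD, and the 7 precursor markers to 330 and 495, all of them detected in both libraries. The part of these in the HSP90AA1 result was not tested.

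HSP90AB1 had a ratio below 1 in 13 of 16 comparisons, with 8 intervals below 1 and 1 above. In PUT oligodendrocyte-like nuclei it was 110.0 CPM in CT and 49.7 in PD (0.452, 0.379 to 0.536), and in PUT indirect SPN-like nuclei 48.1 and 26.7 (0.555, 0.469 to 0.655). Both were below 1 in each shared cluster with at least 20 UMIs of the gene, 4 of 4 and 5 of 5. The shared clusters of the indirect class held only 30.7% of its PD nuclei. In SN other neuron-like nuclei it was instead 23.7 in CT and 40.0 in PD (1.69, 1.20 to 2.40), above 1 in 4 of 4 shared clusters. In SN dopaminergic-like neurons HSP90AB1 was 23.0 and 25.5 CPM (1.10, 0.841 to 1.45), but both shared clusters lay below 1, at 0.710 and 0.879. SN oligodendrocyte-like nuclei held 51.1 and 53.8 CPM, with 8 of 8 shared clusters above 1. The 1 shared cluster lay at 0.875 in SN precursor-like and at 0.842 in SN microglia or macrophage-like nuclei. Of the SN classes, only other neuron-like nuclei had an HSP90AB1 interval clear of 1, so no difference in direction between SN classes is read. In CN indirect SPN-like nuclei the class ratio was 0.781, while 3 of 4 shared clusters lay above 1, so its direction there moves with the clusters compared. HSP90B1, the HSP90 of the endoplasmic reticulum, was 32.3 CPM in CT and 49.4 in PD in SN oligodendrocyte-like nuclei (1.53, 1.31 to 1.79). Its ratio in the 6 shared clusters with enough UMIs ran from 0.684 to 1.91, 3 on each side of 1. The mean log2 ratio over all shared clusters, weighted by nuclei, was 0.12 in place of 0.61. In CN direct SPN-like nuclei it was 34.7 and 28.6 CPM (0.826, 0.715 to 0.953).

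Of the HSP70 genes, HSPA8 was lower in PD through most of the striatum. In PUT oligodendrocyte-like nuclei its level was 97.8 CPM in CT and 44.2 in PD (0.452, 0.375 to 0.542), below 1 in 4 of 4 shared clusters. The same nuclei held fewer transcripts of several other kinds in PD. The 5 direct pathway SPN markers summed to 148 CPM in CT and 67.6 in PD and the 4 indirect pathway markers to 193 and 91.9, all detected in both libraries. The ribosomal protein genes went from 3634 to 2449 CPM. Their part in the HSPA8 result was not tested. In CN direct SPN-like nuclei HSPA8 was 23.3 CPM in CT and 14.4 in PD (0.617, 0.509 to 0.747), and in CN indirect SPN-like nuclei 24.6 and 14.4 (0.584, 0.474 to 0.717). Shared clusters were below 1 in 3 of 3 for the indirect but 2 of 4 for the direct class. In CN oligodendrocyte-like nuclei it was 72.5 and 47.8 CPM (0.660, 0.524 to 0.834), but nuclei with at least 1000 genes gave a log2 ratio of 0.40 in place of -0.60. After thinning to 1000 UMIs, 5.48% of 493 CT nuclei (3.64 to 7.87) and 3.95% of 2127 PD nuclei (3.16 to 4.87) held an HSPA8 UMI. The cause of the change in direction was not tested. The 3 SN classes in which HSPA8 was measured differed among themselves. It was 13.2 CPM in CT and 18.7 in PD in dopaminergic-like neurons (1.42, 1.01 to 1.99) and 34.2 and 41.3 in oligodendrocyte-like nuclei (1.21, 1.03 to 1.42), but 19.6 and 15.1 in other neuron-like nuclei (0.767, 0.488 to 1.21). The oligodendrocyte-like ratio was just below 1, at a log2 of -0.09, in nuclei with at least 1000 genes. In the one shared dopaminergic-like cluster with enough UMIs the HSPA8 ratio was 0.948.

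HSPA5, the HSP70 of the endoplasmic reticulum known as BiP, was 10.6 CPM in CT and 7.01 in PD in CN indirect SPN-like nuclei (0.664, 0.487 to 0.902), just past the 1.5 line. In SN dopaminergic-like neurons it rested on 26 and 24 UMIs (1.24, 0.681 to 2.25). HSPA13, a microsomal HSP70, differed in direction between regions in oligodendrocyte-like nuclei. It was 5.93 CPM in CT and 9.88 in PD in SN (1.67, 1.15 to 2.42), but 14.98 and 6.63 in PUT (0.442, 0.266 to 0.712) and 12.4 and 11.6 in CN (0.941, 0.552 to 1.66). In CN other neuron-like nuclei HSPA13 was 23.1 and 11.3 CPM (0.488, 0.261 to 0.882), on 36 and 18 UMIs. HSPA14, an HSP70 tied to ribosomes, was 44.8 and 27.5 CPM in CN oligodendrocyte-like nuclei (0.614, 0.455 to 0.834).

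HSPA12A differed little in most neurons. In CN direct SPN-like nuclei, where 3881 and 4033 UMIs were counted, it was 321 CPM in CT and 319.9 in PD (0.996, 0.953 to 1.04), and in SN dopaminergic-like neurons 477 and 436 (0.914, 0.859 to 0.971), though the log2 ratio of the latter was 0.07 after thinning. CN other neuron-like nuclei held 219.7 and 283 CPM (1.29, 1.12 to 1.49). In SN oligodendrocyte-like nuclei it was 47.2 and 31.0 CPM (0.657, 0.557 to 0.775). Only 2 of 6 shared clusters with enough UMIs lay below 1 there. The mean log2 ratio over all shared clusters, weighted by nuclei, was -0.03 in place of -0.60. HSPA4, which like HSPH1 exchanges nucleotide on HSP70, was not past the 1.5 ratio in any of 16 comparisons. In PUT indirect SPN-like nuclei HSPA4 was 56.7 and 65.4 CPM (1.15, 1.02 to 1.30). Its relative HSPA4L was 71.0 and 87.6 CPM in SN dopaminergic-like neurons (1.23, 1.06 to 1.43).

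HSPH1 was 38.3 CPM in CT and 50.4 in PD in SN dopaminergic-like neurons (1.32, 1.08 to 1.61), with 1.11 and 1.52 in the 2 shared clusters. An HSPH1 UMI was held by 41.8% of CT and 46.0% of PD nuclei there. After thinning to 1000 UMIs the shares were 3.63% (1.95 to 6.13) on 13 nuclei and 2.17% (0.802 to 4.67) on 6, the other order, so no order is read from them. In the striatum it was lower in PD by less than 1.5 times: 166 and 130.1 CPM in CN indirect SPN-like nuclei (0.786, 0.731 to 0.844), 149 and 128 in CN direct SPN-like (0.858, 0.802 to 0.918), and 137 and 118 in PUT indirect SPN-like (0.860, 0.790 to 0.937). Shared clusters lay on both sides of 1 in CN, 2 of 4 below in each SPN-like class, and together gave a log2 ratio of 0.16 in the indirect class. PUT direct SPN-like nuclei held 154 and 148 CPM (0.961, 0.884 to 1.04).

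HSPD1, the mitochondrial chaperonin HSP60, was higher in PD in SN dopaminergic-like neurons, with 178 UMIs in CT and 206 in PD, or 33.1 and 51.4 CPM (1.55, 1.27 to 1.91). Both shared clusters had a ratio above 1, 27.4 and 49.5 CPM in the first (1.81, 1.15 to 2.91) and 31.2 and 64.7 in the second (2.08, 1.21 to 3.62). Clusters found mostly in 1 library held 30.5 and 38.2 CPM in CT and 52.9 and 35.7 CPM in PD, so the highest CT cluster lay above the lowest PD cluster. An HSPD1 UMI was held by 34.8% of CT and 49.3% of PD nuclei, at median depths of 14225 and 14133 UMIs. After thinning to 1000 UMIs the shares were 5.87% (3.67 to 8.83) on 21 nuclei and 3.99% (2.01 to 7.02) on 11, the other order, so no order is read from them either. The mitochondrially encoded genes summed to 89.4 CPM in CT and 208 in PD in these neurons, while their 9 dopaminergic markers, all detected in both libraries, summed to 6115 and 5814, and the 8 oligodendrocyte markers to 569 and 497. The 5 direct pathway SPN markers summed to 396 and 153 CPM (ratio 0.386), nearly all of it EBF1 while DRD1 was at 0 in both libraries, the 7 astrocyte markers to 163 and 117 (0.717) and the 11 microglia or macrophage markers to 40.9 and 29.4 (0.720). The part of these in the HSPD1 result was not tested. HSPD1 was 30.1 and 36.3 CPM in SN oligodendrocyte-like nuclei (1.21, 1.02 to 1.44), but 52.0 and 50.3 in SN other neuron-like nuclei (0.967, 0.749 to 1.25).

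In the CN neuron-like classes, HSPD1 was lower in PD. It was 30.2 CPM in CT and 17.2 in PD in indirect SPN-like (0.570, 0.472 to 0.688), 27.3 and 18.3 in direct SPN-like (0.671, 0.565 to 0.796) and 52.0 and 28.8 in other neuron-like nuclei (0.554, 0.377 to 0.806). Shared clusters were below 1 in 3 of 3, 4 of 4 and 1 of 1, the last at 0.972. CN oligodendrocyte-like nuclei held 47.7 CPM in CT and 35.9 in PD. In CN astrocyte-like nuclei, 3.96% of CT (2.13 to 6.68) and 4.82% of PD nuclei (2.43 to 8.47) held an HSPD1 UMI after thinning. Their 2 shared clusters gave ratios of 0.325 and 1.004, so no lower level is read for that class. In PUT direct and indirect SPN-like nuclei HSPD1 was 23.9 and 20.4 CPM (0.854, 0.683 to 1.06) and 24.2 and 20.2 CPM (0.833, 0.677 to 1.02).

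**Figure D5:**
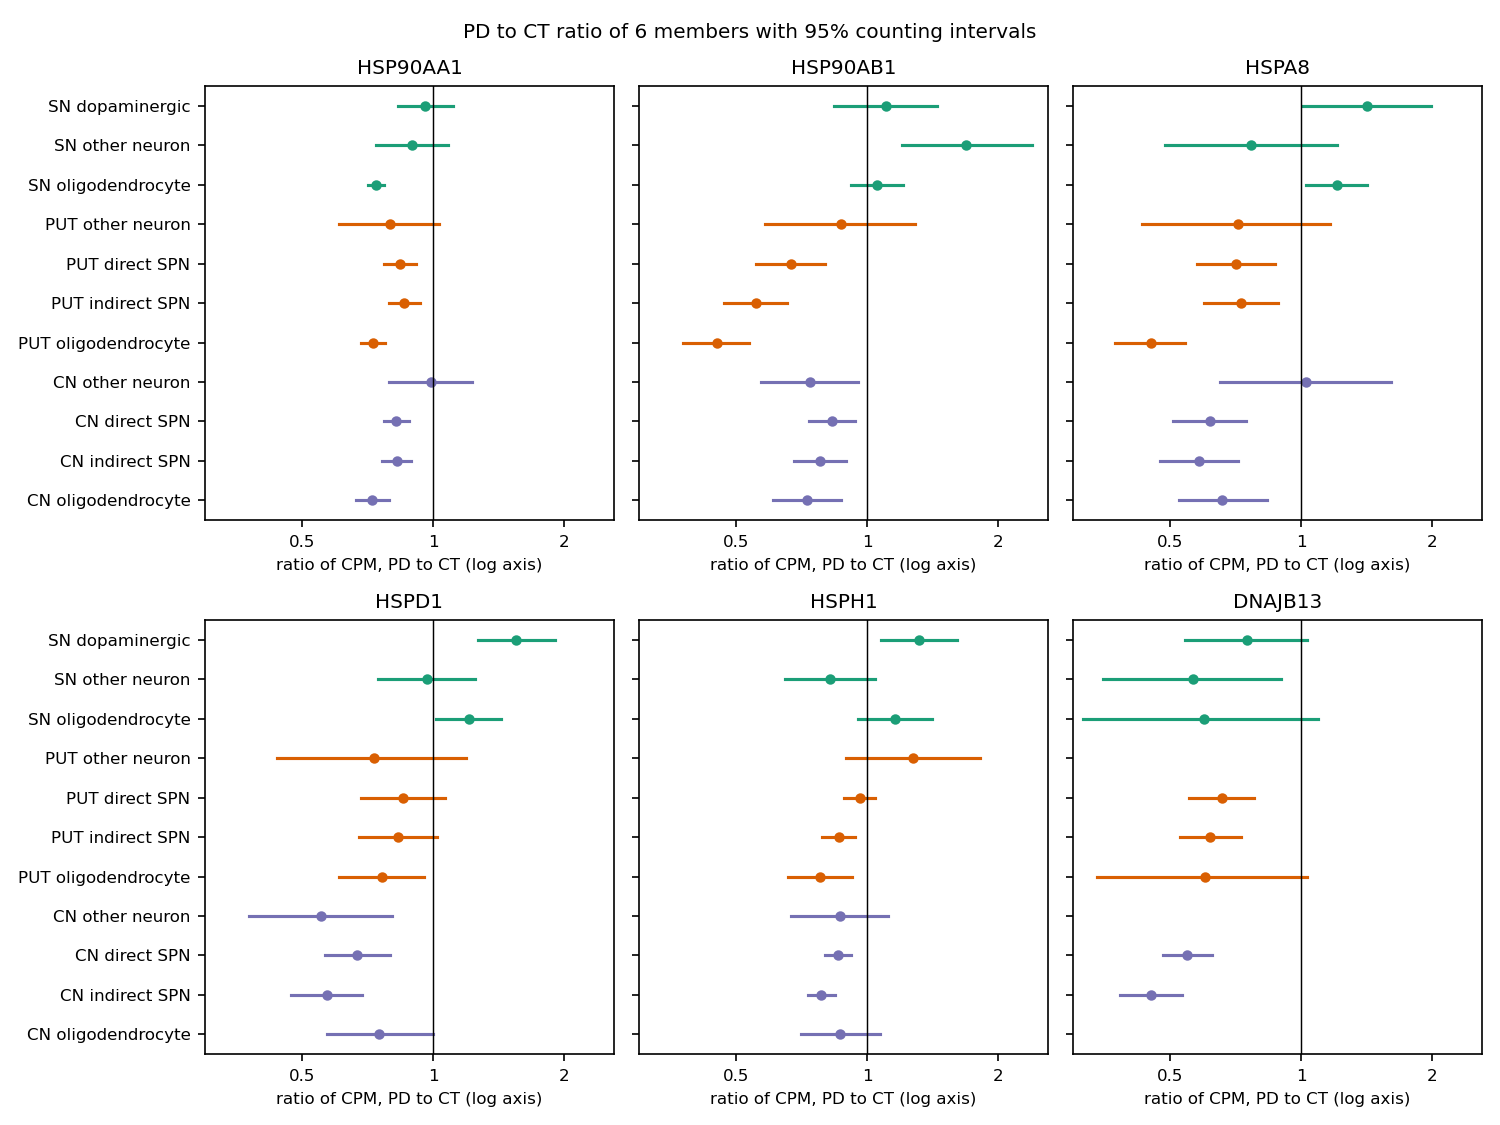
PD to CT ratio (log axis) of HSP90AA1, HSP90AB1, HSPA8, HSPD1, HSPH1 and DNAJB13 in the 11 comparisons with at least 10 measured members, with 95% counting intervals and colors for SN, PUT and CN; a row without a point had fewer than 50 UMIs. HSP90AA1 and DNAJB13 lie left of 1 in all rows with a point, while HSPD1, HSPA8 and HSPH1 lie right of 1 in SN dopaminergic-like neurons.

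Of the small heat shock proteins, HSPB11 was measured in 10 comparisons, HSPB1, HSPB3 and HSPB8 in 1 each, and HSPB6 and HSPB7 in none. HSPB11, which despite its symbol is a subunit of intraflagellar transport in cilia, gave the highest ratio of any member. It was 5.39 CPM in CT and 12.7 in PD in SN dopaminergic-like neurons (2.36, 1.47 to 3.86), on 29 and 51 UMIs, and 6.85 and 14.8 CPM in the one shared cluster with enough UMIs (2.17, 0.887 to 6.03). In SN oligodendrocyte-like nuclei it was 21.4 and 26.3 CPM (1.23, 1.0005 to 1.51). HSPB3 was 9.66 and 5.57 CPM in SN oligodendrocyte-like nuclei (0.576, 0.386 to 0.846), or -0.45 on the log2 scale in place of -0.79 in nuclei with at least 1000 genes. HSPB1 in the same nuclei was 3.51 and 3.90 CPM (1.11, 0.643 to 1.90), on 32 and 28 UMIs. HSPB8, a partner of BAG3 in selective autophagy, reached 50 UMIs only in SN dopaminergic-like neurons, at 7.25 and 6.49 CPM (0.895, 0.523 to 1.51). Its level was highest in SN CT astrocyte-like nuclei, at 68.6 CPM on 20 UMIs (41.9 to 105.9), a class with too few PD nuclei for a comparison.

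Among the HSP40 genes, DNAJB13 was lower in PD wherever it was measured. Its ratio was below 1 in 8 of 8 comparisons and past the 1.5 line in 7. The level was 54.8 CPM in CT and 30.1 in PD in CN direct SPN-like nuclei (0.549, 0.482 to 0.623), 46.1 and 20.8 in CN indirect SPN-like (0.452, 0.384 to 0.532), 45.9 and 30.2 in PUT direct SPN-like (0.657, 0.552 to 0.781) and 48.0 and 29.7 in PUT indirect SPN-like (0.619, 0.527 to 0.727). The CT and PD intervals of the level do not reach each other in any of the 4. In SN other neuron-like nuclei it was 21.4 and 12.1 CPM (0.565, 0.351 to 0.901). Shared clusters were below 1 in 4 of 4, 3 of 3, 3 of 4 and 4 of 5 of the striatal classes in the order given, with the exceptions at 1.73 and 1.07, both in PUT. They held only 27.7% of CT nuclei in CN direct SPN-like and 30.7% of PD nuclei in PUT indirect SPN-like nuclei, so most of these were not compared. Shared clusters together gave -0.10 on the log2 scale in PUT direct SPN-like nuclei, in place of -0.60.

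DNAJB14, an HSP40 of the endoplasmic reticulum membrane, was the most widely measured HSP40, in 18 comparisons. It was 151 CPM in CT and 75.3 in PD in PUT precursor-like nuclei (0.499, 0.283 to 0.863), on 37 and 23 UMIs, and 131 and 82.1 in CN precursor-like nuclei (0.628, 0.401 to 0.977). In SN dopaminergic-like neurons DNAJB14 was 61.1 and 73.1 CPM (1.20, 1.02 to 1.40). DNAJB9, an HSP40 of the unfolded protein response, was 3.31 and 1.43 CPM in CN direct SPN-like nuclei (0.431, 0.233 to 0.770), on 40 and 18 UMIs. DNAJA4 was 7.87 and 3.93 CPM (0.499, 0.317 to 0.769) and DNAJB5 11.7 and 7.34 CPM (0.629, 0.449 to 0.873) in PUT indirect SPN-like nuclei. DNAJB2 was 23.9 and 15.3 CPM in CN indirect SPN-like nuclei (0.640, 0.521 to 0.785) but 133 and 157 in PUT oligodendrocyte-like nuclei (1.18, 1.05 to 1.32). The general cytosolic HSP40 DNAJA1 was not past the ratio in any of 10 comparisons, and read 12.5 and 14.97 CPM in SN dopaminergic-like neurons (1.20, 0.834 to 1.73). DNAJB1 was measured in oligodendrocyte-like nuclei of SN (6.15 and 4.87 CPM; 0.792, 0.504 to 1.23) and PUT (7.70 and 4.42 CPM; 0.573, 0.297 to 1.06). In all, 9 of the 29 measured members were past the ratio in no comparison.

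Other chaperone genes were read from lists chosen with earlier results of these data known. Of 12 HSP90 cochaperones, 2 were higher and none lower in PD in each of the 3 larger SN classes, where 7.26% (dopaminergic-like), 4.98% (other neuron-like) and 7.42% (oligodendrocyte-like) of genes were higher. PPID, the cyclophilin that docks on HSP90, was one of them in each: 12.1 CPM in CT and 25.2 in PD in dopaminergic-like (2.09, 1.51 to 2.89), 15.5 and 27.9 in other neuron-like (1.80, 1.19 to 2.78) and 11.5 and 28.9 in oligodendrocyte-like nuclei (2.51, 1.98 to 3.21). In PUT it was 15.2 and 38.4 CPM in oligodendrocyte-like nuclei (2.53, 1.88 to 3.41), and in CN direct SPN-like nuclei 14.3 and 23.2 (1.62, 1.34 to 1.97). CHORDC1, an HSP90 cochaperone induced by heat, was 37.0 and 60.4 CPM in SN dopaminergic-like neurons (1.63, 1.35 to 1.98). The list's summed level there went from 343 to 406 CPM (1.18, 1.11 to 1.26), and in CN indirect SPN-like nuclei from 378 to 330.4 (0.875, 0.835 to 0.916).

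Of the 12 annotated HSP70 cochaperones, 10 were measured in SN dopaminergic-like neurons. There 1 was higher, beside 7.26% of genes, and 1 lower, beside 6.50%. In CN oligodendrocyte-like nuclei 3 of 10 were lower, beside 12.5% of genes. Among them was STUB1, the ubiquitin ligase CHIP (18.9 and 10.4 CPM, ratio 0.552, 0.340 to 0.904). The DNAJC genes, HSP40s of the third class, had 5 of 22 lower in CN indirect SPN-like nuclei, beside 14.0% of genes, and none higher, beside 3.61%. DNAJC3, an inhibitor of PERK, was 37.9 and 60.6 CPM in SN dopaminergic-like neurons (1.60, 1.32 to 1.94). The 7 measured CCT chaperonin subunits summed to 147 CPM in CT and 118 in PD in CN direct SPN-like nuclei (0.806, 0.752 to 0.864). There 1 subunit was lower by the ratio, beside 13.5% of genes. In SN dopaminergic-like neurons the 7 subunits summed to 126 and 137 CPM (1.09, 0.971 to 1.22), with 1 higher, beside 7.26% of genes. CRYAB, a small heat shock protein outside the symbol rule, was 123 and 77.8 CPM in PUT oligodendrocyte-like nuclei (0.635, 0.549 to 0.733) and 123 and 139.8 in SN ones (1.13, 1.04 to 1.23).

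The genes of the unfolded protein response, which act in the endoplasmic reticulum, had 3 of 14 higher, beside 7.26% of genes, and none lower in SN dopaminergic-like neurons (481 CPM in CT and 544 in PD; 1.13, 1.07 to 1.20). In PUT oligodendrocyte-like nuclei 4 of 14 were lower, beside 14.4% of genes, and none higher (695 and 611 CPM; 0.879, 0.832 to 0.928). CALR, the lectin chaperone calreticulin, was 16.5 and 26.6 CPM in SN oligodendrocyte-like nuclei (1.61, 1.30 to 2.01) but 33.0 and 21.3 in PUT ones (0.645, 0.484 to 0.853). None of the 4 measured heat shock factors was past the ratio in SN dopaminergic-like neurons, beside 7.26% of genes higher and 6.50% lower. HSF1, the main activator of heat shock genes, read 45.9 and 40.9 CPM there (0.891, 0.727 to 1.09). Of the 11 annotated immediate early genes, read beside them, only 2 were measured in SN dopaminergic-like neurons. The rest had too few UMIs there. Both measured genes were lower, beside 6.50% of all genes: FOS at 10.8 and 1.75 CPM (0.162, 0.0624 to 0.356) and NR4A1 at 15.4 and 4.24 CPM (0.275, 0.153 to 0.467).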

How the data were processed

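Per the submitters' processing notes, the authors ran Cell Ranger 7.0.1, and the notes name hg38, although the gene identifiers have the Macaca fascicularis prefix. For the species, the labels give Macaca fascicularis, but their extraction text Macaca mulatta. The deposited matrices hold UMI counts per gene and barcode, with no normalization by the authors. Each of 6 matrices is 1 library, assigned to its group from its file name. The labels do not say how the samples of a group were pooled or weighted in it.

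Members and lists were chosen with earlier results of these data known. Barcodes were kept if they had 500 or more genes, mitochondrial UMIs up to 5% and a Scrublet doublet score up to 0.25 (expected rate 0.06); 1.66% to 5.63% of barcodes were above that score. Free RNA was not corrected. Scanpy 1.11.5 clustered all libraries together (2000 variable genes, 30 components, 15 neighbours, Leiden resolution 1.0, then 0.5 within clusters of at least 60 nuclei), without the members or mitochondrial genes and with no batch correction. Clusters were named by the median level of 115 annotated marker genes relative to the highest cluster of at least 20 nuclei. Clusters with a median doublet score of 0.15 or more, or with a second class at 0.25 or more and at 0.5 of the first, were left out as mixed, as were unnamed ones. The naming limits, the ribosomal protein measure, the oligodendrocyte comparisons and the minimum of 10 measured members for a summary were set after the data were seen.

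UMIs were summed per class and library. Levels are CPM of the class. Ratios have exact conditional binomial intervals, shares exact Clopper-Pearson intervals, all 95% and for counting error only. UMIs of a nucleus are not independent replicates. Log2 ratios had 0.5 UMI added. A log2 ratio given for shared clusters together is the mean over all clusters with at least 20 nuclei in each library. It was weighted by nuclei and had no UMI minimum per cluster. Ratios within single shared clusters were given only with at least 20 UMIs of the member. Named in each comparison were up to 3 members per direction past a ratio of 1.5 with an interval that excludes 1, ranked by the bound nearest to 1, and main members of each family throughout. Other names were chosen after their values were seen. Lists were HSP90 cochaperones, HSP70 cochaperones, the DNAJC family, CCT chaperonin, heat shock factors, small heat shock proteins outside the rule, the unfolded protein response, immediate early genes and mitochondrially encoded genes. The steps were run on counts simulated from all SN CT nuclei at reduced depth (11789 genes), where 95.4% of intervals held the true ratio. There 100% of 100 genes raised 2-fold and 95% of 100 lowered 2-fold passed the 1.5 ratio, as did 2.25% of unchanged genes. The simulation had counting error only, as the intervals assume, so a share near 95% was set in advance. It held no spread between nuclei or animals, and its rates do not carry over to classes with fewer UMIs. Alternatives varied scaling, doublet score, genes per nucleus, thinning, UMI minimum, added UMI, clustering, shared clusters and the ratio.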

Additional observations from a re-analysis of the deposited data

Results flagged for a closer look

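HSPA13, the microsomal HSP70, stood out because its PD to CT ratio in oligodendrocyte-like nuclei was past 1.5 in opposite directions in 2 regions, 1.67 in SN and 0.442 in PUT. The values rest on 54 and 71 UMIs in SN and 70 and 24 UMIs in PUT. With 1 library per region and treatment, the difference between the regions was not tested.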

How the results depend on the processing

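No paired analysis was possible because the matrices carry no link from nuclei to numbered samples, and for the same reason no replicate could be left out. In the 11 comparisons with at least 10 measured members, 99 alternative member medians were set against the counting interval of the member or members at the median. That limit is wide, so staying within it says little about how steady a median is. All 99 stayed within it, but 4 changed sign. After thinning these were -0.05 in SN dopaminergic-like and 0.24 in SN other neuron-like nuclei. Within shared clusters they were 0.06 in PUT other neuron-like and 0.0066 in PUT indirect SPN-like nuclei. Of 1169 alternative values of single named members, 1096 stayed within the counting interval of that member, 72 moved out of it and 1 reversed. The reversed one was HSPA8 in CN oligodendrocyte-like nuclei, at a log2 ratio of 0.40 with at least 1000 genes per nucleus. The cause was not tested. With shared clusters only, HSPD1 in CN other neuron-like nuclei was -0.22 (log2), against -0.84 in the whole class. Scaling by the median of ratios brought HSPA8 in CN direct SPN-like nuclei to -0.57 and HSPA5 in CN indirect SPN-like nuclei to -0.45, and thinning brought DNAJB14 in CN precursor-like nuclei to -0.38, all short of the 1.5 ratio.

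Counts of members moved by over 1.5 times as follows; the cause of the moves under another ratio or minimum is the rule itself. At a ratio of 2, the higher members numbered 1 in SN dopaminergic-like, 0 in SN other neuron-like and 0 in SN oligodendrocyte-like nuclei, and the lower ones 0 in SN other neuron-like, SN oligodendrocyte-like, PUT direct SPN-like and CN oligodendrocyte-like, 1 in PUT indirect SPN-like, CN other neuron-like, CN direct SPN-like and CN indirect SPN-like, and 3 in PUT oligodendrocyte-like nuclei. At a minimum of 200 UMIs, the higher numbered 1 in SN dopaminergic-like, 0 in SN other neuron-like and 1 in SN oligodendrocyte-like, and the lower 0 in SN other neuron-like and CN other neuron-like, 1 in SN oligodendrocyte-like and CN oligodendrocyte-like, and 2 in PUT indirect SPN-like and PUT oligodendrocyte-like nuclei. At a minimum of 20 UMIs, the higher numbered 2 in SN other neuron-like and PUT other neuron-like and 1 in PUT indirect SPN-like, and the lower 1 in PUT other neuron-like, 8 in PUT oligodendrocyte-like and 5 in CN direct SPN-like nuclei. Scaling by the median of ratios, added after seeing the data for these counts, gave 1 lower in SN dopaminergic-like, 2 higher in SN other neuron-like, 0 lower in PUT direct SPN-like, 3 lower in CN indirect SPN-like and 1 lower in CN oligodendrocyte-like nuclei. Members under 50 UMIs, such as DNAJB1 in neurons, could not be compared at this depth. The ratio of the summed members, taken without HSP90AA1 (added after seeing the data), was 1.03 in SN oligodendrocyte-like nuclei in place of 0.897 and 0.831 in PUT ones in place of 0.796; the other 17 comparisons stayed within their counting intervals.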
